A study of Mus musculus with 2 samples.

Results

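The 9 genes described here encode 6 ligands of the epidermal growth factor (EGF) family (Egf, Areg, Ereg, Hbegf, Tgfa and Btc) and 3 receptors of the ERBB family (Egfr, Erbb2 and Erbb3). They were chosen by name as the family members of interest, and all 9 were among the 19320 features of the table. The values come from droplet-based single-cell RNA sequencing of mouse prostate, with 1 library of prostatic intraepithelial neoplasia (PIN) at an age of 6 months and 1 library of prostatic adenocarcinoma (PCa) at 12 months. The genotype in both was R26 mTmG/hAR:Osr1 Cre/+ on a mixed background of C57BL/6 and 129S1/SvImJ. In both, Cre expressed from the Osr1 promoter switches on a human androgen receptor transgene (hARtg) and the membrane-bound green fluorescent protein reporter (mGFP). Both groups carry the transgene, so neither serves as a control without it. The study reported Osr1 expression in mesenchymal and epithelial cells of the embryonic urogenital sinus. The reporter thus marks a lineage and not a cell type. In postnatal prostate with the reporter alone, the study saw no mGFP in cells stained for vimentin or smooth muscle actin. It described hARtg and mGFP in the PIN and PCa cells as confined to luminal and basal epithelium.

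The table lists a feature named EGFP and a feature named ARQ, which were taken as mGFP and hARtg from their names alone. Barcodes of cells end in either 1 or 2, and the cells are grouped here by that ending as barcode set 1 and set 2. No label ties an ending to a tissue, so no cell was assigned to PIN or PCa. The number of cells and the mean UMIs of the first set equal those given in the study's text for PIN, but such a match is not a label and was not used to assign cells. With 1 library per group there are no replicates. Intervals in brackets are 95% intervals of counting error, no p-values were computed, and a difference between the sets cannot be told apart from a difference between 2 captures.

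EGF family ligands are made as membrane-anchored precursors and are released by cell surface proteases, mainly ADAM10 and ADAM17, before they bind a receptor on the same or a neighbouring cell. EGFR binds all of the ligands studied here, Hbegf, Ereg and Btc products also bind ERBB4, ERBB3 binds neuregulins and signals mainly through a partner, and ERBB2 has no known ligand and acts as the favoured partner of the others. In prostate, EGF is a secretory product of the luminal epithelium, and EGFR is best known from basal cells.

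The genes lie in several parts of the mouse genome, but Ereg, Areg and Btc are neighbours on chromosome 5, with Ereg at chr5:91074617-91093649, Areg at chr5:91139599-91148432 and Btc at chr5:91357261-91402994 in RefSeq's annotation of GRCm38.p6 (mm10). Egf spans chr3:129677574-129755322, and Egfr and Erbb2 are both on chromosome 11. The 250 bases before the annotated start are printed here for Areg (chr5:91139349-91139598, plus strand), Btc (chr5:91402995-91403244, minus strand) and Egf (chr3:129755323-129755572, minus strand, the second of its 2 listed starts), because these ligands gave some of the largest differences in level described further on. Each is written 5′ to 3′. Capitals mark letters that match a searched motif, and sequences without capitals held none.
Areg: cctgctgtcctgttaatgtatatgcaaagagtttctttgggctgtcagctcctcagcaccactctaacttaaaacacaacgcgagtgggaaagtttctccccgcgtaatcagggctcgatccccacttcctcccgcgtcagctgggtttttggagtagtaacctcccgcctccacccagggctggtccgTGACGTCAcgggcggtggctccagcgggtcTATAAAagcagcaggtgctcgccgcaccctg
Btc: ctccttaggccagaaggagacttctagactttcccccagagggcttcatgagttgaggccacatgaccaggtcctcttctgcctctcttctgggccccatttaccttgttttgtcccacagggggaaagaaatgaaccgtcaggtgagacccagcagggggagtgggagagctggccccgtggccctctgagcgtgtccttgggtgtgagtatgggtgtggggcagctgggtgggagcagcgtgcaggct
Egf: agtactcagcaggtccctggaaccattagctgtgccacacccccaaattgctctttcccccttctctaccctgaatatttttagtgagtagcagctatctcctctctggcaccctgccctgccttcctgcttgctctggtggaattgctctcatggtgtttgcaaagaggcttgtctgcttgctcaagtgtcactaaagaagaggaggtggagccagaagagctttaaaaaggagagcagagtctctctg
The promoter table held 7 promoters for 6 of the 9 genes (Egf, Areg, Tgfa, Btc, Egfr and Erbb2). Areg alone among them held a match. TGACGTCA, the cAMP response element, began 61 bases before its start, and TATAAA, the core promoter box, searched on the given strand only, began 31 bases before it. Of 32807 promoters of the same length in the table, 1.55% held TGACGTCA and 7.60% held TATAAA. These letters were searched for after the Areg promoter had been read. None of the 7 held the androgen receptor hexamer AGAACA on either strand, which 16.1% of all promoters held, or the AP-1 site TGANTCA, which 6.75% held. A match is a description of the letters in this window, and a missing match says nothing of the factor.

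After doublet removal, 6177 cells of set 1 and 9235 cells of set 2 remained, with 134850345 and 187280119 unique molecular identifiers (UMIs, tags of single captured RNA molecules) in the sets before removal. They fell into 18 clusters that were named from marker genes. The luminal-like name is weakest for clusters 0, 3, 4 and 6, which had 0 luminal markers among their 10 leading genes. Of these, clusters 3 and 6 scored higher for seminal vesicle markers and cluster 4 for proximal markers, but under the score those names required. Clusters 0, 3, 4 and 6 held most luminal-like cells of both sets, cluster 4 alone 1312 cells of set 1. Luminal-like cells numbered 2241 in set 1 and 6333 in set 2, basal-like cells 1701 and 363, proximal or urethral luminal-like cells 585 and 219, fibroblast-like cells 198 and 361, endothelium-like cells 40 and 170, and leukocyte-like cells 1117 and 280. A further class, seminal vesicle-like, held 291 and 1420 cells, but its 7 marker genes summed to 7.49 CPM in set 1 against 13342 CPM in set 2. The label therefore holds for set 2 only, and the 291 cells of set 1 are called by their cluster, number 2. A cluster of 4 and 89 cells stayed unnamed. In its cells of set 2 smooth muscle markers summed to 11552 CPM and fibroblast markers to 6395 CPM. The sets shared 67 barcodes. CPM are counts per 1000000, here a gene's UMIs in all cells of 1 class and set over the total of those cells. Since 3′ tags are counted once per molecule, CPM do not grow with transcript length and can be set side by side between genes.

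Hbegf, which encodes heparin-binding EGF-like growth factor, was among the most abundant ligands in every class of both sets. Endothelium-like cells of set 1 stood at 1200 CPM (1076 to 1334), from 40 cells, and those of set 2 at 692 CPM (656 to 730). Proximal or urethral luminal-like cells reached 826 CPM (813 to 840) and 696 CPM (671 to 722), so that in set 2 these 2 classes did not differ beyond counting error. Luminal-like cells held 333 CPM (329 to 337) in set 1 and 127 CPM (126 to 129) in set 2, and basal-like cells 299 CPM (292 to 306) and 389 CPM (366 to 414). The order of luminal-like and basal-like cells was thus opposite in the sets. Leukocyte-like cells had the lowest levels, 33.0 CPM (28.7 to 37.8) and 28.2 CPM (21.5 to 36.2).

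Areg, which encodes amphiregulin, was the other abundant ligand and was highest in epithelium. In set 1 proximal or urethral luminal-like cells led with 279 CPM (272 to 287), luminal-like cells came next with 241 CPM (237 to 244), and basal-like cells had 60.8 CPM (57.6 to 64.1). In set 2 the leading class was seminal vesicle-like, at 394 CPM (387 to 401), followed by luminal-like cells at 365 CPM (361 to 368), proximal or urethral luminal-like cells at 181 CPM (168 to 194) and basal-like cells at 96.0 CPM (84.7 to 108). Areg was uneven inside the proximal class. Cluster 12, led by Msln, Wfdc2 and Krt4, held 800 CPM (776 to 824) in set 1 and 354 CPM (325 to 385) in set 2, whereas cluster 10 held 67.5 CPM (63.1 to 72.1) and 85.1 CPM (74.5 to 96.6).

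Egf itself was a minor transcript that was almost restricted to luminal cell classes. Basal-like cells held 0.314 CPM (0.126 to 0.647) in set 1 and 1.85 CPM (0.602 to 4.33) in set 2, or 7 and 5 UMIs in all. Luminal-like cells held 14.5 CPM (13.6 to 15.4) and 8.95 CPM (8.45 to 9.46). The highest class was cluster 2 in set 1, at 24.9 CPM (21.9 to 28.2), and proximal or urethral luminal-like in set 2, at 61.3 CPM (54.1 to 69.2). Nearly all of the latter lay in cluster 10, at 93.7 CPM (82.7 to 106). Both leads depend on the clustering, since Egf in the seminal vesicle-like class of set 1 was 8.15 CPM at resolution 1.0, where luminal-like cells held 16.3 CPM, and in proximal cells of set 2 it was 14.4 CPM without integration. Among luminal-like clusters, Egf reached 156 CPM (146 to 166) in the cells of set 2 in cluster 8, which is led by Pbsn, Ren1 and Tgm4, while the large set 2 clusters 0 and 3 held 0.927 CPM (0.659 to 1.27) and 1.10 CPM (0.795 to 1.49). Areg ran the other way across these clusters of set 2, at 29.7 CPM (25.7 to 34.2) in cluster 8, 406 CPM (400 to 413) in cluster 0 and 470 CPM (463 to 477) in cluster 3.

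**Figure D1:**
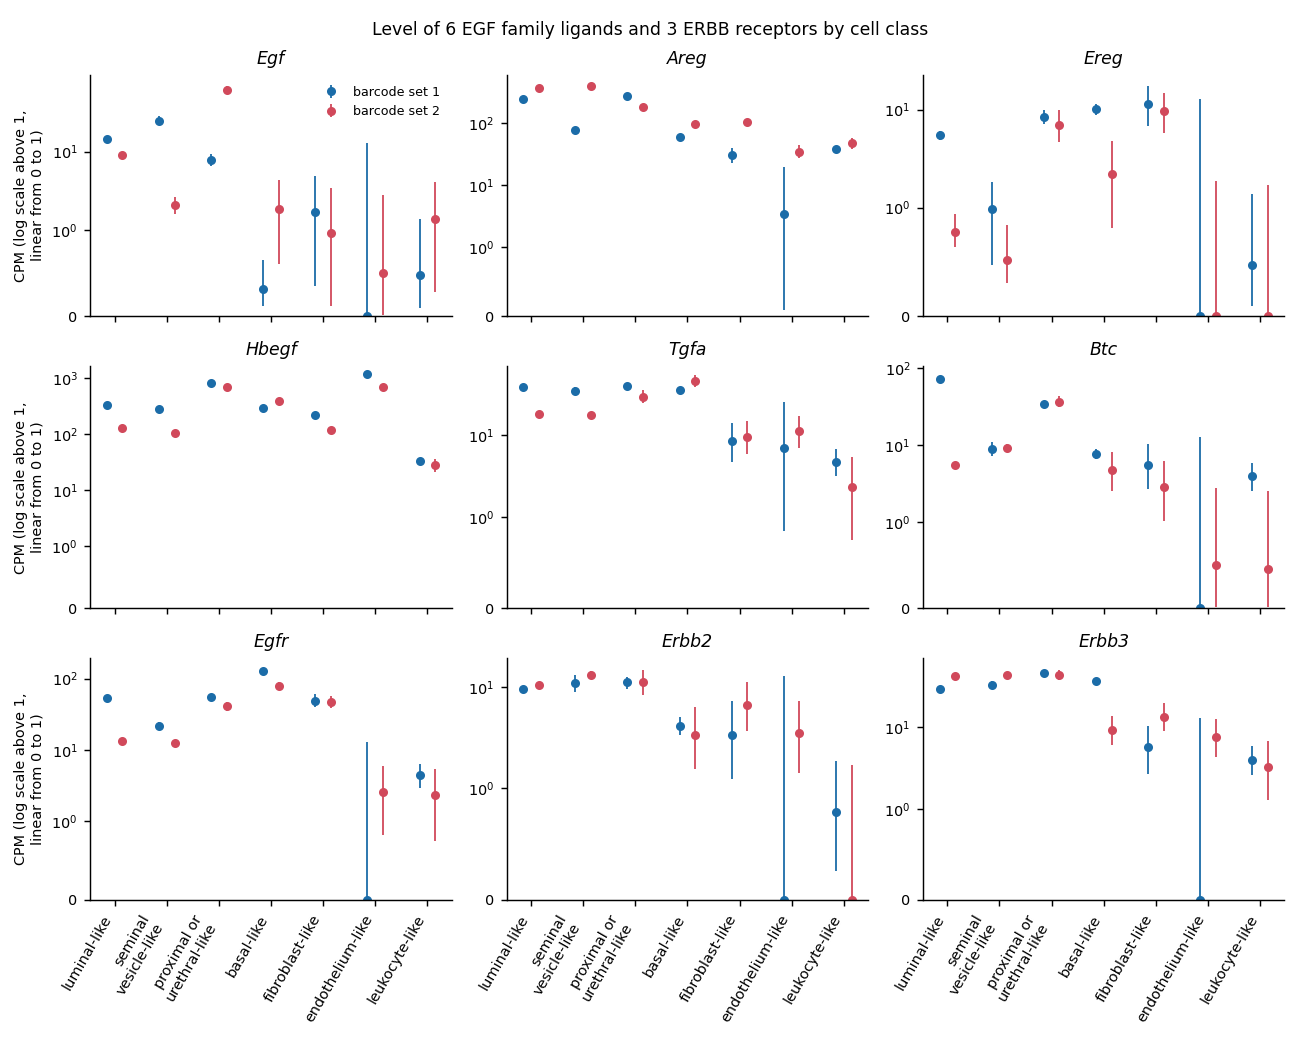
Level of each ligand and receptor in CPM (vertical axes, logarithmic above 1 and linear from 0 to 1) in 7 cell classes of barcode set 1 (blue) and set 2 (red), with points for summed UMIs and bars for 95% Poisson intervals. Egfr is highest in basal-like cells of both sets, Hbegf in endothelium-like and proximal cells, and the Btc points of luminal-like cells lie at 72.9 CPM (set 1) and 5.62 CPM (set 2). Cells drawn as seminal vesicle-like in set 1 are the 291 cells of cluster 2, which lack the seminal vesicle markers.

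Btc, which encodes betacellulin, stood apart between the luminal-like cells of the sets. Luminal-like cells held 72.9 CPM (71.0 to 75.0) in set 1 and 5.62 CPM (5.23 to 6.03) in set 2, whereas proximal or urethral luminal-like cells held 34.1 CPM (31.5 to 36.9) and 36.9 CPM (31.4 to 43.1). In luminal-like cells Btc peaked in cluster 4, led by Clu and Krt6a, at 107 CPM (104 to 110) in set 1 and 59.4 CPM (52.9 to 66.4) in set 2.

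Tgfa, the gene of transforming growth factor alpha, had similar sums in the epithelial classes of set 1, from 34.2 CPM (30.7 to 38.0) in cluster 2 to 39.8 CPM (37.0 to 42.8) in proximal or urethral luminal-like cells, with overlapping intervals between each class and the next. Inside the luminal-like class it was uneven, at 52.3 CPM (50.1 to 54.6) in cluster 4, 25.4 CPM (22.8 to 28.3) in cluster 8 and 14.1 CPM (12.3 to 16.1) in cluster 5 of set 1. In set 2 basal-like cells led with 45.6 CPM (37.9 to 54.4), against 18.0 CPM (17.3 to 18.7) in luminal-like cells.

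Ereg, the gene of epiregulin, was a minor ligand transcript that peaked in cluster 12, where it had an interval of 20.9 to 29.6 CPM in set 1 and a level of 17.6 CPM (11.6 to 25.7) in set 2. Fibroblast-like cells ranked first for Ereg in both sets, at 11.3 CPM (6.88 to 17.4) and 9.57 CPM (5.84 to 14.8), each from 20 UMIs, and their intervals overlapped those of the next class. Luminal-like cells held 5.47 CPM (4.94 to 6.04) in set 1 and 0.778 CPM (0.637 to 0.941) in set 2.

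Among the receptors, Egfr was highest in basal-like cells of both sets. The levels there were 129 CPM (125 to 134) in set 1 and 79.7 CPM (69.4 to 91.1) in set 2. Luminal-like cells held 53.1 CPM (51.4 to 54.8) and 13.5 CPM (12.9 to 14.1), and fibroblast-like cells 49.0 CPM (39.3 to 60.5) and 47.4 CPM (38.5 to 57.6). In set 1 the proximal, luminal-like and fibroblast-like levels overlapped within counting error, and in set 2 the fibroblast-like and proximal levels did. Leukocyte-like cells stood at 4.42 CPM (2.94 to 6.39) and 2.31 CPM (0.750 to 5.39), and no Egfr UMI was seen in the 40 endothelium-like cells of set 1, whose interval reached 12.9 CPM.

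Erbb3 was an epithelial transcript with no such basal bias. Proximal or urethral luminal-like cells led in set 1, at 45.8 CPM (42.8 to 49.0), and in set 2 their 43.4 CPM (37.4 to 50.1) did not differ beyond counting error from the seminal vesicle-like and luminal-like levels. Luminal-like cells held 29.1 CPM (27.8 to 30.4) in set 1 and 41.6 CPM (40.5 to 42.7) in set 2, with basal-like cells at 35.9 CPM (33.4 to 38.4) and 9.27 CPM (25 UMIs), so the order of these 2 classes turned between the sets. Erbb2 was the lowest receptor in luminal-like and proximal cells of both sets, whereas in seminal vesicle-like cells of set 2 Egfr was at 12.4 CPM. In the luminal classes Erbb2 ranged from 9.67 CPM (8.96 to 10.4) in luminal-like cells of set 1 to 13.3 CPM (12.1 to 14.6) in seminal vesicle-like cells of set 2. Basal-like cells held 4.17 CPM (3.37 to 5.11) and 3.34 CPM (1.53 to 6.34) of Erbb2.

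The mix of ligand transcripts differed between epithelial classes. Hbegf made up 72.4% (71.5 to 73.3) of the ligand UMIs of basal-like cells in set 1 and 72.1% (69.7 to 74.4) in set 2. For luminal-like cells the Hbegf part was 47.2% (46.8 to 47.6) in set 1 but 24.3% (23.9 to 24.6) in set 2, and Areg made up 69.4% (69.1 to 69.7) of the latter. The receptor mix of luminal-like cells was likewise unequal, with Egfr at 57.8% (56.6 to 59.0) of receptor UMIs in set 1 and Erbb3 at 63.4% (62.4 to 64.4) in set 2. Basal-like cells kept Egfr as the main receptor transcript, at 76.4% (75.0 to 77.7) and 86.3% (81.4 to 90.4).

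To compare detection at 1 depth, each cell was thinned to 3000 UMIs. Egfr was then detected in 31.8% (29.6 to 34.1) of basal-like cells of set 1 and 21.5% (17.2 to 26.2) of set 2, beside 14.4% (12.9 to 15.9) and 3.63% (3.18 to 4.12) of luminal-like cells. Leukocyte-like cells gave 0.946% (0.409 to 1.85) in set 1, and in set 2 0 of 250 cells, with an exact upper bound of 1.46% for cells with a UMI at this depth. Without thinning, 4 of 280 leukocyte-like cells of set 2 (1.43%) held an Egfr UMI. Without thinning the Egfr shares were 67.9% and 35.5% of basal-like and 64.7% and 20.8% of luminal-like cells, at median depths of 10862 and 5507 UMIs for basal-like, 28663 and 16469 UMIs for luminal-like, and 3825 and 7022.5 UMIs for leukocyte-like cells. Shallower cells were left out of the thinned shares, namely 23 basal-like cells of each set, 13 and 55 luminal-like cells and 271 and 30 leukocyte-like cells.

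Cells with UMIs of both a ligand and Egfr made up a larger share of basal-like than of luminal-like cells in both sets. The share of cells with Egfr alone had the same order. Whether ligand and Egfr met in a cell more often than their separate shares give was not tested. At 3000 UMIs, 17.9% (16.1 to 19.8) of basal-like cells of set 1 held at least 1 UMI of any of the 6 ligands and of Egfr, as did 12.9% (9.56 to 17.0) of those of set 2. The shares of luminal-like cells were 11.5% (10.2 to 12.9) and 2.34% (1.98 to 2.75), and of leukocyte-like cells 0.355% (0.0732 to 1.03) in set 1 with 0 of 250 in set 2. Any ligand was found in 75.7% (73.8 to 77.4) and 58.0% (56.8 to 59.2) of luminal-like cells, and in 55.9% (53.5 to 58.3) and 55.6% (50.1 to 60.9) of basal-like cells. An Egf UMI was seen in 0 of 1678 thinned basal-like cells of set 1 and, without thinning, in 7 of 1701 (0.412%, 0.166 to 0.846), so the thinned value speaks for cells with a UMI at 3000 UMIs and not for cells that express the gene.

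Epithelial RNA was present at a low level in non-epithelial cells, so stromal and leukocyte levels were set beside those of epithelial keratins. In leukocyte-like cells of set 2, Krt8 stood at 10.5%, Krt18 at 11.4% and EGFP at 10.5% of its luminal-like level, and Areg stood at 13.0%, Tgfa at 12.8% and Btc at 8.21%. Fibroblast-like cells of set 2 held Krt8 at 24.3% and Krt18 at 25.1% of the luminal-like level, with Areg at 28.2% and Erbb3 at 32.2%. Their Egfr stood at 351% and their Ereg at 1230%. Hbegf in endothelium-like cells was 360% of the luminal-like level in set 1 and 543% in set 2, where Krt8 in the same cells was 1.34% and 12.5%. As percents of the luminal-like level, fibroblast-like Egfr and Ereg and endothelial Hbegf were thus far above the keratins. Areg in fibroblast-like and leukocyte-like cells of set 2 was close to them. Other epithelial genes gave a wider range in set 2, with Pbsn at 3.74%, Spink1 at 32.6% and Svs5 at 33.4% in leukocyte-like cells, and Pbsn at 11.3%, Svs5 at 42.1% and Spink1 at 94.5% in fibroblast-like cells. In set 1 the leukocyte-like level of Areg, 16.0%, lay above those of Krt8 and Krt18, at 4.94% and 5.49%, but below those of EGFP and ARQ, at 34.4% and 31.7%. Luminal-like cells are a poor reference for some of these genes. EGFP in set 1 was 414 CPM there, against 2412 CPM in basal-like cells and 4980 CPM in cluster 2. In set 2 the seminal vesicle markers, Svs5 among them, summed to 611 CPM in luminal-like and 13342 CPM in seminal vesicle-like cells. The percents of EGFP, ARQ and Svs5 are thus not a measure of RNA from luminal-like cells. Those of Egfr and Ereg in set 2 rest on low luminal-like levels, 13.5 and 0.778 CPM. Egfr in set 2 was 47.4 CPM in fibroblast-like but 79.7 CPM in basal-like cells. Ereg in set 2 was 9.57 CPM (5.84 to 14.8) in fibroblast-like and 6.97 CPM (4.70 to 9.95) in proximal or urethral luminal-like cells.

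**Figure D2:**
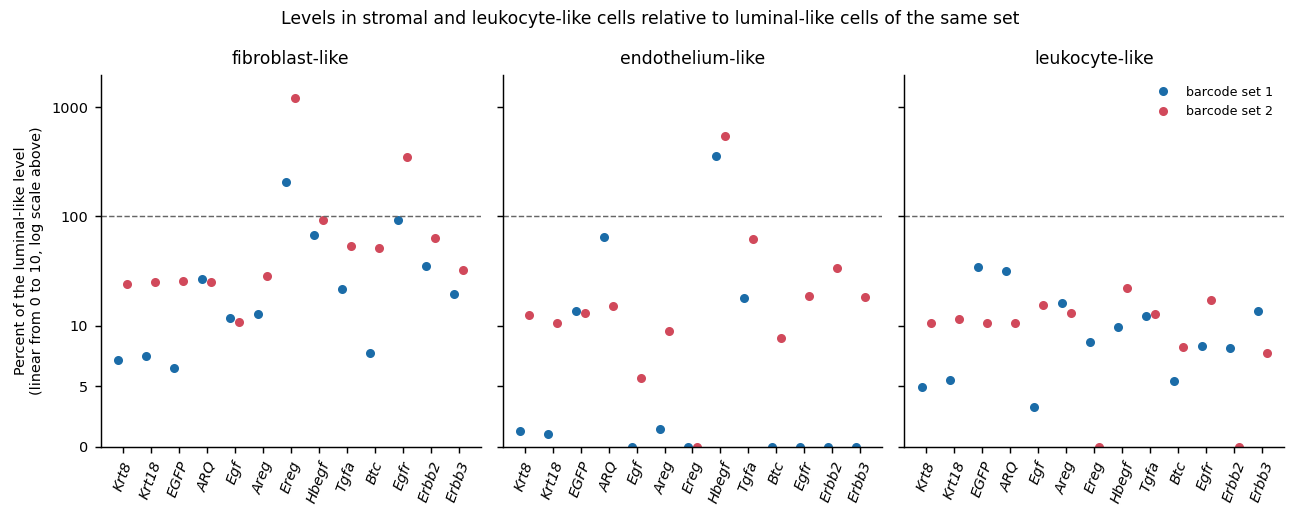
Level of each gene in fibroblast-like, endothelium-like and leukocyte-like cells as a percent of its level in luminal-like cells of the same barcode set (vertical axis, linear from 0 to 10 and logarithmic above), with points for set 1 in blue and set 2 in red and a dashed line at 100. The keratins Krt8 and Krt18, EGFP and ARQ are drawn first as epithelial references. Ereg and Egfr in fibroblast-like cells of set 2 and Hbegf in endothelium-like cells of both sets lie above 100.

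The study concerned cells of the Osr1 lineage, so cells with many UMIs of the reporter were compared with cells with few, inside a class and set. EGFP-high cells had 20 or more EGFP UMIs per 10000 UMIs, EGFP-low cells had under 5, and cells between were left out. A gene counts as past 2-fold when its log2 ratio is 1 or more in size, its counting interval leaves out 0 and it has 20 or more UMIs over both sides. In set 2 the split is less certain, above all for the high side. Leukocyte-like cells, which are not expected to carry the reporter, had a median of 3.29 EGFP UMIs per 10000 there. Of them, 67.5% fell under 5 and 6.07% passed the EGFP-high limit. In set 1 these shares were 98.6% and 0.537%. ARQ followed EGFP in luminal-like cells, at 486 against 22.7 CPM in set 1 and 1544 against 178 CPM in set 2, and in basal-like cells, at 762 against 112 CPM and 795 against 370 CPM.

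In basal-like cells of set 1, EGFP-high cells (436 cells) had less Ereg and Btc than EGFP-low cells (1203 cells). Ereg stood at 4.54 CPM (3.09 to 6.45) against 13.3 CPM (11.5 to 15.3), a log2 ratio of -1.55 (-2.14 to -0.99). Btc stood at 3.52 CPM (2.25 to 5.23) against 9.39 CPM (7.88 to 11.1), a log2 ratio of -1.42 (-2.11 to -0.78). These were 2 of the 8 members with enough UMIs, where 4.44% of all 11131 genes compared were past 2-fold lower and 3.49% past 2-fold higher. The receptors differed by less than 2-fold and in opposite directions. Egfr was 89.7 CPM (82.7 to 97.1) against 150 CPM (144 to 157), a log2 ratio of -0.75 (-0.88 to -0.62), and Erbb3 was 49.4 CPM (44.2 to 54.9) against 28.7 CPM (26.0 to 31.6), a log2 ratio of 0.78 (0.57 to 0.99). The median log2 ratio of the 8 members was -0.27, beside -0.07 over all genes. EGFP-high cells were also deeper, with medians of 13202.5 against 10014 UMIs, and with every cell thinned to 3000 UMIs 1 member was past 2-fold.

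Basal-like cells of set 2 (166 EGFP-high and 133 EGFP-low) gave no member past 2-fold among the 5 with enough UMIs, where 2.84% of all genes were past 2-fold higher and 1.22% lower. Egfr was 73.7 CPM (60.2 to 89.2) against 87.7 CPM (69.8 to 109), and the interval of its log2 ratio, -0.25 (-0.68 to 0.18), includes 0. Hbegf was 334 CPM (305 to 365) against 517 CPM (473 to 565), a log2 ratio of -0.63 (-0.82 to -0.45). The same quantity in set 1 was -0.36 (-0.44 to -0.28). Members' ratios had a median of 0.24, with 0.07 over all genes.

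Luminal-like cells of set 1 were mostly EGFP-low (2040 cells, against 136 EGFP-high). Egf stood at 29.4 CPM (24.8 to 34.6) in EGFP-high and 13.4 CPM (12.5 to 14.3) in EGFP-low cells, a log2 ratio of 1.14 (0.88 to 1.40). Ereg stood at 1.83 CPM (0.835 to 3.47) against 5.83 CPM (5.25 to 6.45), a log2 ratio of -1.67 (-2.81 to -0.73). These were the members past 2-fold, 1 of 9 in each direction, where 4.97% of all genes were past 2-fold higher and 1.86% lower. The count depends on the settings, with 0 members past 2-fold without integration or with 1 or more EGFP UMIs against 0, 1 with EGFP at 50 or more or with the split at 10, and 4 at resolution 1.0. The others were lower by less than 2-fold or close to even. Btc was 40.0 CPM (34.6 to 46.0) against 76.0 CPM (73.9 to 78.2), Areg 168 CPM (157 to 180) against 248 CPM (244 to 251), and Egfr 39.8 CPM (34.4 to 45.8) against 54.3 CPM (52.5 to 56.1). The members' median log2 ratio was -0.45, beside -0.05 over all genes. Of the 136 EGFP-high cells, 69 belonged to cluster 5, and within that cluster Egf had a log2 ratio of 0.87 (0.56 to 1.18) while Areg had 1.07 (0.82 to 1.31), opposite in sign to its ratio of -0.56 (-0.66 to -0.46) over the class.

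Luminal-like cells of set 2 were nearly all EGFP-high (6121 cells, against 164 EGFP-low), and here the ligands stood far apart. Areg was 377 CPM (373 to 380) in EGFP-high and 13.5 CPM (9.95 to 17.8) in EGFP-low cells, a log2 ratio of 4.81 (4.40 to 5.24). Egf was 3.98 CPM (3.64 to 4.33) against 147 CPM (134 to 160), a log2 ratio of -5.20 (-5.38 to -5.03). Hbegf was 122 CPM (120 to 123) against 284 CPM (267 to 301), and Btc was 5.72 CPM (5.32 to 6.15) against 2.47 CPM (1.13 to 4.69), the latter side from 9 UMIs. The members past 2-fold were 2 of 9 higher and 2 lower, where 12.9% of all genes were higher and 15.9% lower. The median log2 ratio was 0.80 for the members and -0.18 for all genes.

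Most of this contrast followed clusters. Of the 164 EGFP-low cells, 148 lay in cluster 8, beside only 77 of the EGFP-high cells. Within cluster 8 of set 2, Egf was 139 CPM in EGFP-high and 154 CPM in EGFP-low cells, a log2 ratio of -0.16 (-0.36 to 0.05), and the ratios of Hbegf, -0.12 (-0.27 to 0.03), and Btc, -0.03 (-1.80 to 1.62), were also near 0. Areg still differed there, at 55.7 against 12.1 CPM, a log2 ratio of 2.21 (1.69 to 2.75), with ARQ at 506 against 78.3 CPM in the same cells. The part of RNA from other cells in the level of Areg was not tested.

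**Figure D3:**
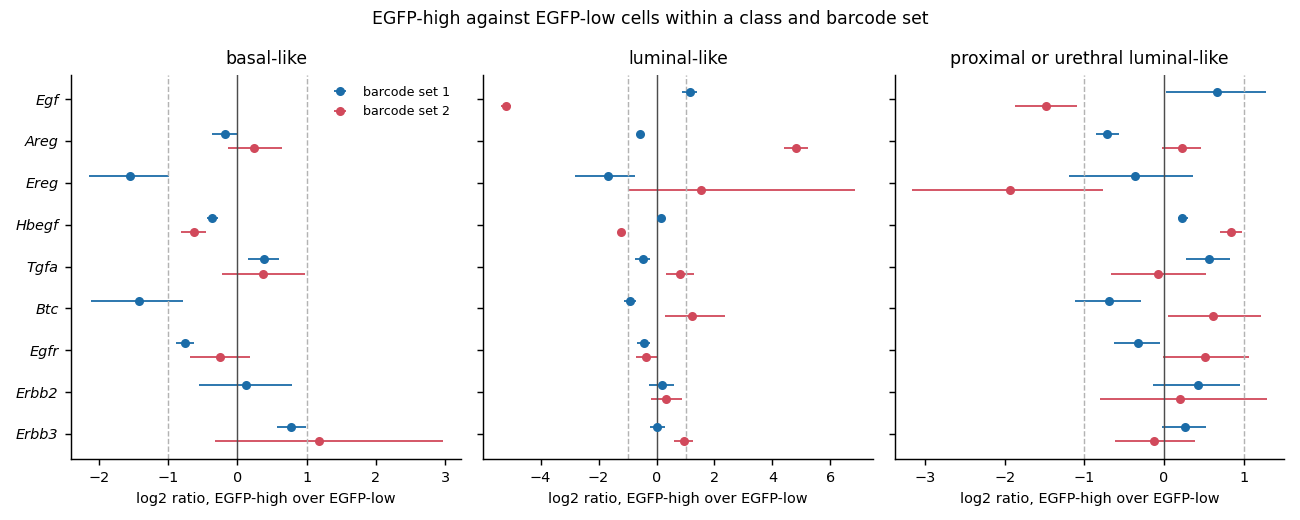
Log2 ratio of EGFP-high over EGFP-low cells (horizontal axes) for each member with 20 or more UMIs in basal-like, luminal-like and proximal or urethral luminal-like cells of barcode set 1 (blue) and set 2 (red), with bars for 95% counting intervals, a solid line at 0 and dashed lines at -1 and 1. In luminal-like cells Egf lies at 1.14 in set 1 and -5.20 in set 2, and Areg at -0.56 and 4.81, and in basal-like cells Ereg and Btc of set 1 lie below -1.

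Finer steps of EGFP showed the same pair of ligands in opposite order in luminal-like cells of set 2. From under 5 to 100 or more EGFP UMIs per 10000, Areg stood at 13.5, 34.4, 217, 340 and 436 CPM in turn, higher at each step than at the one before. Egf stood at 147, 179, 35.4, 3.36 and 1.74 CPM. Luminal-like cells of set 1 showed neither course, with Areg at 248, 209, 156 and 179 CPM and Egf at 13.4, 13.3, 32.6 and 26.1 CPM over the 4 steps that held 20 or more cells. The steps were not held within a cluster. In set 2, 148 of the 164 luminal-like cells of the lowest step lay in cluster 8. Within that cluster, the log2 ratio of EGFP-high over EGFP-low cells was -0.16 (-0.36 to 0.05) for Egf and 2.21 (1.69 to 2.75) for Areg. In basal-like cells of set 1, Egfr was 150 CPM (144 to 157) below 5 and between 80.7 and 98.1 CPM in each of the other steps. Its difference thus lay between the lowest step and all others. That step of 1203 cells is not free of the reporter, since 838 of the 1701 basal-like cells of set 1 held an EGFP UMI.

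**Figure D4:**
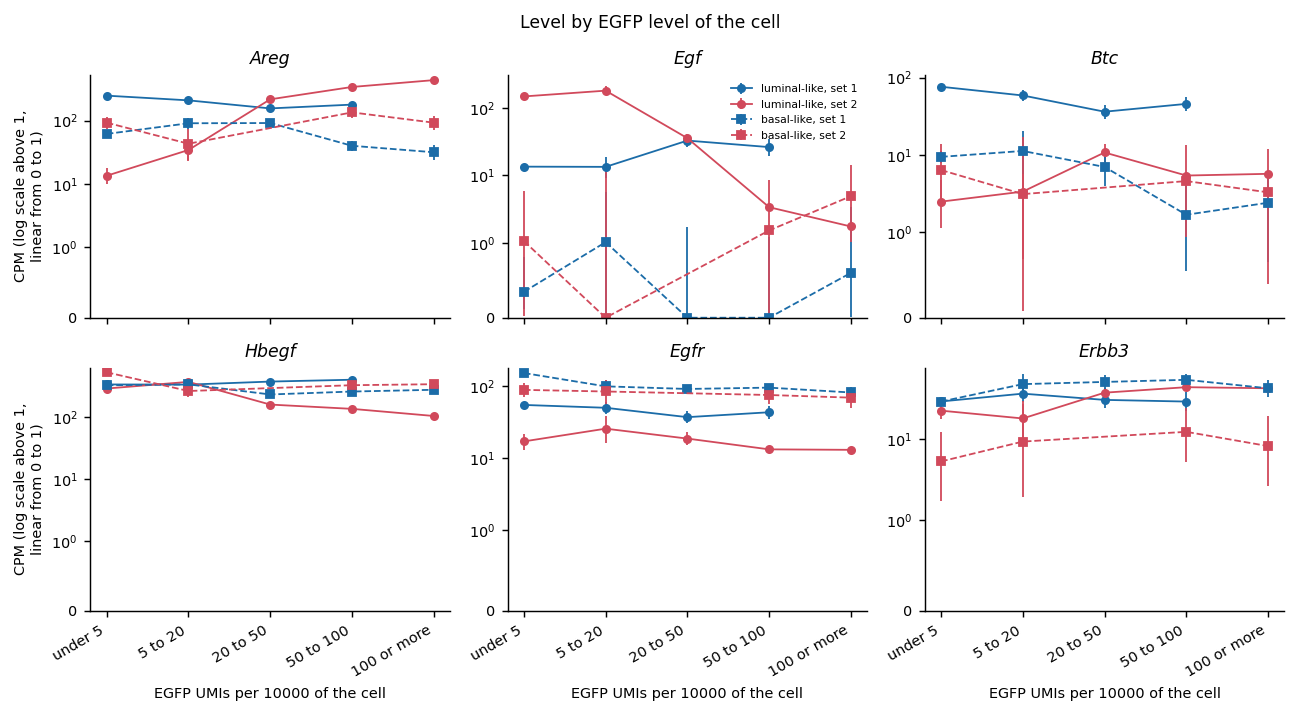
Level of 6 members in CPM (vertical axes, logarithmic above 1 and linear from 0 to 1) by EGFP UMIs per 10000 of the cell (horizontal axes, 5 steps) in luminal-like (circles, solid lines) and basal-like cells (squares, dashed lines) of set 1 (blue) and set 2 (red), with 95% Poisson intervals. Steps with under 20 cells are not drawn, and lines pass over them. Areg climbs from 13.5 to 436 CPM and Egf drops from 147 to 1.74 CPM in luminal-like cells of set 2. The steps are not held within a cluster, and the lowest step of these cells lies mostly in cluster 8.

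Proximal or urethral luminal-like cells were split by EGFP after the other results were seen. In set 1 (81 EGFP-high and 485 EGFP-low cells) no member was past 2-fold, where 2.98% of all genes were higher and 3.64% lower. Areg was 181 CPM (165 to 199) against 296 CPM (287 to 305), a log2 ratio of -0.71 (-0.85 to -0.57), but 0.37 (0.10 to 0.63) within cluster 10. The lack of members past 2-fold in set 1 depends on the clustering. Without integration 6 members were past 2-fold there. The log2 ratio of Hbegf then turned from 0.23 to -1.05 and that of Tgfa from 0.56 to -0.33. With every cell weighing the same, 1 member was past 2-fold. In set 2 (131 and 63 cells) Egf was 38.5 CPM (31.4 to 46.8) against 107 CPM (89.1 to 128), a log2 ratio of -1.48 (-1.87 to -1.09), and Ereg was 4.16 CPM (2.07 to 7.44) against 15.8 CPM (18 UMIs). These were 2 of 9 members lower, where 5.52% of all genes were higher and 2.90% lower. ARQ did not separate these cells of set 2, at 629 CPM (599 to 660) in EGFP-high and 709 CPM (661 to 759) in EGFP-low cells, unlike those of set 1, at 560 against 53.9 CPM. Median log2 ratios were 0.23 for members and -0.11 for all genes in set 1, and 0.20 and 0.06 in set 2.

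In cluster 2 of set 1 (192 EGFP-high and 50 EGFP-low cells, also added afterwards) Areg was 71.8 CPM (65.6 to 78.4) against 147 CPM (127 to 169), a log2 ratio of -1.03 (-1.27 to -0.79). It was 1 of 8 members, where 1.42% of all genes were higher and 2.48% lower, and the members' median of -0.08 equalled that of all genes. ARQ was 853 against 578 CPM there. With the split set at 10 EGFP UMIs per 10000, no member was past 2-fold.

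The sets were then compared within a class, which sets one capture against another. In luminal-like cells, 5 of 9 members were past 2-fold lower in set 2 and none was past 2-fold higher, where 24.7% of all genes were lower and 15.6% higher. The lower members were Btc, with a log2 ratio of -3.70 (-3.81 to -3.59), Ereg at -2.81 (-3.14 to -2.50), Egfr at -1.98 (-2.06 to -1.90), Hbegf at -1.39 (-1.41 to -1.36) and Tgfa at -1.11 (-1.19 to -1.03). Areg, at 0.60 (0.57 to 0.62), and Erbb3, at 0.52 (0.44 to 0.59), leaned to set 2, and Erbb2 was even at 0.11 (-0.02 to 0.25). The median log2 ratio was -1.11 over the members and -0.20 over all genes.

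Different clusters made up the luminal-like class in each set, with clusters 4 (1312 cells), 8 (488 cells) and 5 (410 cells) in set 1, and clusters 0 (2551 cells), 3 (1668 cells), 5 (822 cells) and 6 (804 cells) leading in set 2. Clusters 4, 5 and 8 held enough cells of both. Egfr was past 2-fold lower in set 2 within each of them, for example at 31.7 against 69.4 CPM in cluster 4 and 6.20 against 18.4 CPM in cluster 5. The log2 ratios in clusters 4, 5 and 8 were -1.13 (-1.37 to -0.90), -1.57 (-1.89 to -1.26) and -1.08 (-1.37 to -0.80). Btc was lower in each as well, but by -0.85 (-1.02 to -0.68) in cluster 4, against -3.04 (-3.75 to -2.38) in cluster 5 and -3.99 (-4.78 to -3.30) in cluster 8. Erbb2 and Tgfa stayed within 2-fold in all 3. Tgfa was at -0.26 (-0.46 to -0.06), -0.55 (-0.84 to -0.26) and -0.97 (-1.33 to -0.62) in clusters 4, 5 and 8.

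Egf and Areg differed in opposite directions inside luminal clusters 5 and 8, and which was higher in set 2 depended on the cluster. In cluster 5, led by Pbsn and Msmb, Egf was 3.23 CPM in set 2 against 30.3 CPM in set 1, a log2 ratio of -3.23 (-3.63 to -2.84), and Areg was 147 against 44.3 CPM, a log2 ratio of 1.73 (1.61 to 1.85). In cluster 8 Egf was 156 against 32.3 CPM, a log2 ratio of 2.27 (2.11 to 2.44), and Areg was 29.7 against 142 CPM, a log2 ratio of -2.26 (-2.48 to -2.04). EGFP was higher in set 2 in both clusters, at 11115 against 810 CPM in cluster 5 and 2172 against 272 CPM in cluster 8. Hbegf was 63.0 against 289 CPM in cluster 5 and 293 against 277 CPM in cluster 8.

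**Figure D5:**
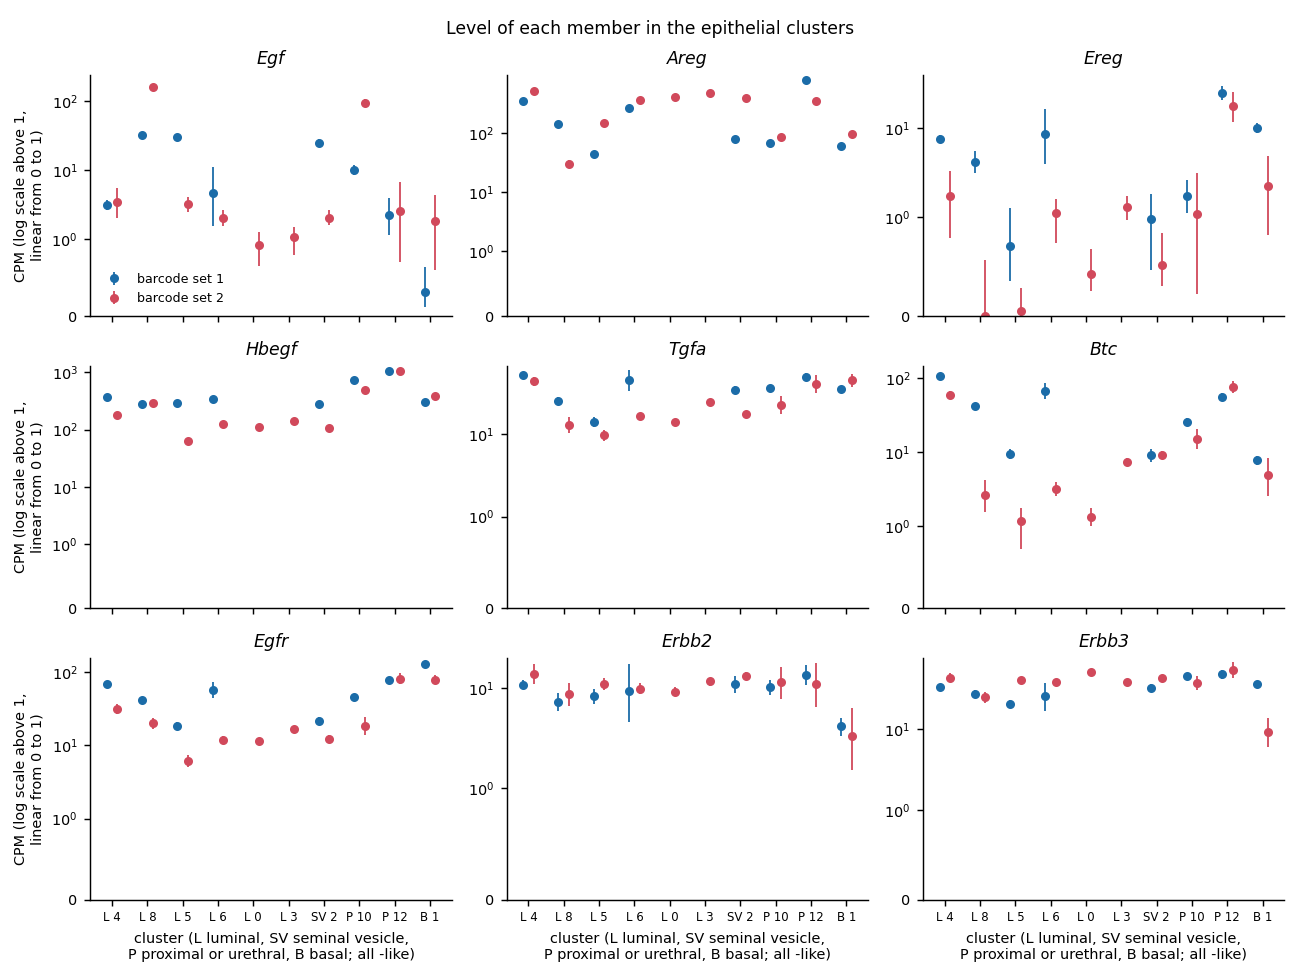
Level of each member in CPM (vertical axes, logarithmic above 1 and linear from 0 to 1) in 10 epithelial clusters (horizontal axis, with the class of each cluster) of barcode set 1 (blue) and set 2 (red), with bars for 95% Poisson intervals. Clusters 0 and 3 have no set 1 point because they held 1 and 0 of its cells. Egf of set 2 peaks at 156 CPM in cluster 8 and 93.7 CPM in cluster 10, where Areg of set 2 is 29.7 and 85.1 CPM, and Egfr of set 1 lies above that of set 2 in clusters 4, 5, 8 and 10.

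In basal-like cells, Ereg and Erbb3 were past 2-fold lower in set 2, with log2 ratios of -2.18 (-3.64 to -1.04) and -1.95 (-2.59 to -1.38). These were 2 of 8 members, where 5.35% of all genes were lower and 5.49% higher. Ereg rested on 6 UMIs in set 2 and Erbb3 on 25. Egfr was lower by less than 2-fold, at -0.70 (-0.91 to -0.50), and Hbegf was slightly higher, at 0.38 (0.29 to 0.48). The median was -0.50 over members and 0.01 over all genes.

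Among proximal or urethral luminal-like cells, Egf was the 1 of 9 members past 2-fold, at 61.3 CPM (54.1 to 69.2) in set 2 against 7.82 CPM (6.60 to 9.20) in set 1, a log2 ratio of 2.97 (2.67 to 3.27). Of all genes 6.88% were higher and 5.92% lower. Within cluster 10 the Egf ratio was 3.22 (2.91 to 3.53), but in clusters built without integration of the sets it turned to -0.54, so it depends on which cells the class takes in. Areg was 354 against 800 CPM within cluster 12, a log2 ratio of -1.18 (-1.31 to -1.05), while Hbegf there was 1051 against 1054 CPM. Medians were -0.25 for members and -0.04 for all genes.

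Seminal vesicle-like cells of set 2 were set against the cells of set 1 in the same cluster, which lack its markers. Areg was higher by a log2 ratio of 2.32 (2.22 to 2.42), and Egf and Hbegf were lower by -3.60 (-4.01 to -3.20) and -1.41 (-1.48 to -1.33), where 11.9% of all genes were higher and 15.7% lower. The median was -0.81 over 9 members and -0.01 over all genes.

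In fibroblast-like cells Areg was 103 CPM (89.5 to 118) in set 2 and 31.0 CPM (23.3 to 40.3) in set 1, a log2 ratio of 1.73 (1.30 to 2.19), and Erbb3 was 13.4 CPM (8.90 to 19.4) against 5.63 CPM (2.70 to 10.4). These were 2 of 7 members higher, where 7.13% of all genes were higher and 6.44% lower. Krt8 stood at 24.3% of the luminal-like level in these cells of set 2 and at 7.19% in set 1, and the part of epithelial RNA in the 2 ratios was not tested. Egfr did not differ beyond counting error, with a log2 ratio of -0.05 (-0.48 to 0.38). The class was not made up alike in the sets, since 8 smooth muscle markers summed to 3598 CPM in set 1 and 581 CPM in set 2. The median was 0.18 over the members and 0.06 over all genes.

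Leukocyte-like cells were made up differently, mostly of the Ccl5- and Gzma-led clusters 7 and 14 in set 1 and of the C1q- and Lyz2-led cluster 11 in set 2. Btc was past 2-fold lower, as 1 of 6 members, from 1 UMI in set 2 against 25 UMIs in set 1. Of all genes 29.4% were lower and 11.6% higher, and the medians were -0.61 over members and -0.54 over all genes.

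The other genes of the pathway were read from lists chosen for their roles. Nrg1, which encodes neuregulin 1, a ligand of ERBB3, had basal-like levels of 118 CPM (113 to 122) in set 1 and 103 CPM (91.3 to 116) in set 2, and stood at 105 CPM (90.8 to 122) and 59.8 CPM (49.8 to 71.2) in fibroblast-like cells. Epgn, the gene of epigen, was likewise highest in basal-like cells, at 28.4 CPM (26.2 to 30.7) and 41.5 CPM (112 UMIs). Erbb4, the remaining receptor, stayed at or under 3.95 CPM in every epithelial class named here. Luminal-like cells of set 1 held 18.6 CPM (17.7 to 19.7) of Nrg1 and those of set 2 held 0.433 CPM (0.330 to 0.558). In the set comparison of luminal-like cells all 5 measured members of this list (Nrg1, Nrg2, Nrg4, Epgn and Erbb4, with Nrg3 not analysed here) were past 2-fold lower in set 2, with the ratio of Nrg1 at -5.43 (-5.83 to -5.05), beside 24.7% of all genes.

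Lists of genes that act after the receptors were also read inside basal-like cells, beside the share of all genes past 2-fold. In basal-like cells of set 1, EGFP-high against EGFP-low, 0 of 14 adaptors and relays (such as Shc1 and Grb2) and 0 of 8 ERK output genes were past 2-fold, and 2 of 12 feedback inhibitors were lower, namely Spry2, a Sprouty inhibitor of receptor signalling, at -1.30, and Dusp5, an ERK phosphatase. Of all genes 3.49% were higher and 4.44% lower. The median log2 ratio of the feedback list was -0.16, beside -0.07 over all genes. Basal-like cells of set 2 had 1 of 7 feedback inhibitors lower (Spry1, at -1.23) and no ERK output gene past 2-fold among 6, where 1.22% of all genes were lower and 2.84% higher.

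Luminal-like cells of set 2, EGFP-high against EGFP-low, had 4 of 8 ERK output genes higher and 1 lower, where 12.9% of all genes were higher and 15.9% lower, with Ccnd1, the gene of cyclin D1, at 3.92 (3.59 to 4.27) and Fosl1 at -1.82 (-1.90 to -1.73). The list's median was 0.96, beside -0.18 over all genes. In the same comparison 12 of 13 genes known to respond to tissue dissociation were higher, with a median of 1.53 and Fos at 2.72 (2.58 to 2.87), and Egr1 stands in both lists. The part of dissociation in the ratios of the ERK output genes and of Areg was not tested. Feedback inhibitors split, with Dusp4 and Spry1 higher and Dusp5 lower among 12, and 0 of 14 adaptors and relays were past 2-fold. Of 4 sheddases and partners, Adam10, at -1.04 (-1.24 to -0.84), and Rhbdf2, at -1.18 (-1.87 to -0.41), were lower.

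Between the sets, luminal-like cells of set 2 had 4 of 12 feedback inhibitors lower (Dusp6, Lrig1, Dusp5 and Spry2) and none higher, where 24.7% of all genes were lower and 15.6% higher, with Dusp6, an ERK phosphatase, between 11.4 and 12.6 CPM by its interval against 83.4 CPM (81.3 to 85.5), a log2 ratio of -2.80 (-2.88 to -2.72). Errfi1, an inhibitor that binds EGFR directly, was 386 CPM (383 to 389) against 205 CPM (202 to 208). Of the ERK output genes 4 of 8 were higher, with Ccnd1 at 294 CPM (291 to 297) against 54.4 CPM (52.7 to 56.2), and Fosl1 was lower. Among the 13 dissociation genes 7 were higher and Dusp1 was lower. Nras was the 1 of 14 adaptors past 2-fold, at a log2 ratio of -1.04. Adam10, a main protease of EGF and betacellulin precursors, was 31.3 CPM (30.4 to 32.2) against 91.4 CPM (89.2 to 93.7).

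Across 26 profiles, each a cluster in 1 set, the members had unlike patterns. The highest correlation of log CPM between members was that of Erbb2 with Erbb3 (Pearson's r = 0.91), while Egf and Areg had r = -0.20. Of 10271 genes compared, those most like Areg were Cers3 and Tmem40 (r = 0.90 each), those most like Egf were Arfgef3 (0.89) and Tc2n (0.87), and those most like Btc were Vtcn1 (0.93) and Clu (0.91). Jup (0.93) was closest to Hbegf, Elovl7 (0.92) to Tgfa, Clip4 (0.87) to Ereg, Sema3c (0.93) to Egfr, Nipal2 (0.94) to Erbb2 and Cldn3 (0.95) to Erbb3. Erbb2 reached at most 14.0 CPM in these profiles, close to the 10 CPM added before taking logs. Its values of r thus rest on a narrow range of low levels. Profiles of 1 set share a library and its depth, so these values describe likeness only.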

How the data were processed

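Per the labels and the study's methods, cells were dissociated with collagenase and TrypLE, captured with 10x Genomics 3′ v2 chemistry and counted with Cell Ranger 3.1.0 against mm10 with mGFP and hARtg added. The deposited table holds natural log values, ln(1 + 10000 × UMIs / total) per cell, although it is named as counts. Whole UMI counts were recovered from the deposited values for 100% of entries (tolerance 0.001). No authors' comparison columns were present.

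Of 15742 cells, 155 of set 1 and 175 of set 2 were removed as doublets (Scrublet in scanpy 1.11.5, limit 0.25). The rest were clustered in Seurat 5.3.0 (R 4.3.3; 2000 variable genes, 30 components, 20 integration dimensions, resolution 0.5), with 67 genes, the members included, held out. Clusters were named from markers. UMIs were summed per class and set (Python 3.11.15, numpy 2.4.6, scipy 1.17.1), with Poisson, exact binomial and conditional binomial 95% intervals, which cover counting error only. A side needed 50 cells, and a ratio 20 UMIs. Zero counts take a floor of 3 counts. The ratio step was checked on simulated data.

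Named genes are the 9 members, the leading genes of each pathway list and the genes closest by Pearson's r on log2(CPM + 10). Members, lists, the naming rule and the doublet limit were chosen with earlier results of these data known. Alternatives were other EGFP limits, clustering, thinning, UMI minimum, equal cell weights and single clusters. Promoters are from RefSeq, GRCm38.p6.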

Additional observations from a re-analysis of the deposited data

Results flagged for a closer look

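Several ligands had log2 ratios of EGFP-high over EGFP-low cells of opposite sign in the 2 barcode sets, and each of these differences between the sets was not tested, since each set is 1 library. In luminal-like cells Egf was 1.14 in set 1 and -5.20 in set 2, Areg was -0.56 and 4.81, Hbegf was 0.16 and -1.22, Tgfa was -0.47 and 0.80, and Btc was -0.93 and 1.21. In proximal or urethral luminal-like cells Egf was 0.67 in set 1 and -1.48 in set 2, and Btc was -0.69 and 0.62. The EGFP-low luminal-like cells of set 2 lay mostly in cluster 8 (148 of 164 cells), while those of set 1 numbered 2040. Within cluster 5 of set 1 and cluster 8 of set 2, Areg was 1.07 (0.82 to 1.31) and 2.21 (1.69 to 2.75). Tgfa was 0.37 (-0.15 to 0.87) and 0.68 (-0.04 to 1.39) there. In the same clusters Egf was 0.87 (0.56 to 1.18) and -0.16 (-0.36 to 0.05), and Hbegf was 0.54 (0.44 to 0.64) and -0.12 (-0.27 to 0.03). Btc was 0.16 (-0.53 to 0.80) and -0.03 (-1.80 to 1.62).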

How the results depend on the processing

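No paired analysis was possible because the labels give no replicate numbers and PIN and PCa have 1 library each. Of 587 log2 ratios under the alternatives planned at the start, 579 kept their sign. Of 332 under those chosen after seeing the data, 317 did. The latter include the EGFP comparisons of proximal cells, the seminal vesicle-like comparisons and the single-cluster settings. The 2 other UMI minimums cannot alter a ratio, so their values kept their sign by design (70 and 60 planned, 35 and 30 added). Without integration, 7 planned ratios changed sign, 21 moved without changing sign and 42 stayed the same. Of 117 member levels, 32 moved by over 1.5 times. In what follows, the cause was not tested. With 1 or more EGFP UMIs against 0, Areg was 0.31 and Btc 0.01 in proximal cells of set 1, Tgfa was 0.04 in luminal-like cells of set 1, and 1 member in basal-like and 0 in luminal-like cells of set 1 were past 2-fold. With EGFP 50 or more against under 5, luminal-like cells of set 1 had 1, and with the split at 10 they had 1 and cluster 2 of set 1 had 0. With 100 or more UMIs, 1 member was past 2-fold in proximal cells of set 2, 1 between sets in fibroblast-like and 0 in leukocyte-like cells. With every cell weighing the same, proximal cells of set 1 had 1, and fibroblast-like and leukocyte-like cells between sets had 1 and 0. Thinned to 3000 UMIs, basal-like cells of set 1 and proximal cells of set 2 had 1 each. At resolution 1.0, luminal-like cells of set 1 had 4. Without integration, EGFP ratios were 0.13 for Areg in basal-like and 0.13 for Egfr in luminal-like cells of set 1, -0.34 for Btc in luminal-like cells of set 2, and -1.05 for Hbegf and -0.33 for Tgfa in proximal cells of set 1. Ratios between sets in proximal cells were then -0.54 for Egf, 0.55 for Egfr, 0.44 for Hbegf and 0.06 for Tgfa, and the counts were 0 in luminal-like and 6 in proximal cells of set 1 and 2 between sets in leukocyte-like cells. Within cluster 5 of set 1, EGFP ratios were 1.07 for Areg, 0.16 for Btc and 0.37 for Tgfa, with 1 past 2-fold. Within cluster 8 of set 2, 1 member was past 2-fold by EGFP. Within cluster 10, Areg was 0.37 by EGFP in set 1 and 0.33 between sets, with 2 members past 2-fold between sets. Between sets, Egf was 0.13 within cluster 4 with 3 members past 2-fold, Egfr was 0.06 within cluster 12, cluster 11 had 3 members past 2-fold, and within cluster 8 Areg was -2.26, Egf 2.27, Erbb3 -0.15 and Hbegf 0.08. Settings that left under 50 cells on a side were not run. These were the single clusters with too few cells of a side, the EGFP UMI split at 1 in basal-like, luminal-like and proximal cells of set 2 and in cluster 2 of set 1, the limit of 50 in proximal cells of set 1, the clusters without integration in proximal cells of set 2 and in seminal vesicle-like cells, and doublets kept, resolution 1.0 and thinning in cluster 2 of set 1.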
